A study of Mus musculus with 4 samples.

Results

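The genes described here encode the subunits of the AMPA and kainate types of ionotropic glutamate receptor in FACS-enriched mouse interneurons with and without *Dnmt1*. The 9 genes, *Gria1* to *Gria4* for AMPA receptors and *Grik1* to *Grik5* for kainate receptors, were chosen as a family by symbol through GENCODE M21, out of the 55573 genes listed. All 9 of 9 passed the filter on low counts that left 16832 genes for testing.

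AMPA receptors are tetramers of the GRIA proteins and carry most fast excitatory transmission in the brain. Kainate receptors are tetramers in which GRIK1, GRIK2 and GRIK3 can form channels by themselves, whereas GRIK4 and GRIK5 work only together with one of them. Migrating interneurons are known to carry glutamate receptors before they form synapses, and the GRIA2 subunit, once its transcript has been edited at the pore site, makes AMPA channels nearly impermeable to calcium.

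RNA was sequenced from tdTomato-positive cells sorted from the basal telencephalon of mouse embryos at E16, with the day of insemination counted as E1. There were 2 *Dnmt1* WT libraries from a pool of 12 embryos and 2 *Dnmt1* KO libraries from a pool of 6 embryos, all carrying *Hmx3-Cre* and the tdTomato reporter on a C57BL/6J background. The KO additionally carried the *Dnmt1* loxP2 allele, in which Cre removes exons 4 and 5 in *Hmx3*-expressing cells and their progeny and leaves a null allele. The labels call the libraries biological replicates whereas the study's methods describe technical duplicates of pooled samples, so SDs and p-values measure the spread between libraries, which may be technical. Total counts ranged from 8075102 to 9995968 per library, and 3 counts were worth 0.294 to 0.372 CPM (library-size scaled counts, with TMM factors). The share of mitochondrial rRNA was 8.66% in WT 1 and 1.51% to 2.31% in the other libraries, and the counts of WT 1 and WT 2 lay further apart (chi-square per degree of freedom 57.2) than those of KO 1 and KO 2 (4.28). WT 1 and WT 2 also differed for several of the genes described here, and values without one library are given where they differ from those of all libraries. When a WT library is left out, only KO 1 and KO 2 give a spread within a genotype. The p-values and calls of such fits therefore do not measure the spread within WT. *Dnmt1*, whose reads outside the deleted exons are still counted, stood at 385 and 447 CPM in WT and at 283 and 281 CPM in KO. Its log2 fold change was -0.56 (SE 0.14, edgeR adjusted p = 0.0511), a value just above the threshold with both KO libraries below both WT libraries. The markers of the labelled cells were present in every library, among them *Dlx1*, a transcription factor of GABAergic progenitors, with 556 to 703 CPM and *Hmx3* with 71.8 to 93.7 CPM.

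The coding sequences of the family share the pore loop, where a glutamine codon marks the site that ADAR enzymes edit to arginine in *Gria2*, *Grik1* and *Grik2* transcripts. The 39 bases around this codon are shown because the site relates all 9 genes to each other and is the one at which editing acts in *Gria2*. They were read 5′ to 3′ on the coding strand from spliced GENCODE M21 coding sequences, with positions on GRCm38 and with the codon in capitals.
Gria1: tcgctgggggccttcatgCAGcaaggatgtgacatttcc
Gria2: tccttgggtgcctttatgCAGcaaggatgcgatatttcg
Gria3: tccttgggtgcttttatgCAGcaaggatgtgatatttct
Gria4: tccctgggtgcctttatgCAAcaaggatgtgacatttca
Grik1: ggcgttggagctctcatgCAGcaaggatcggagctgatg
Grik2: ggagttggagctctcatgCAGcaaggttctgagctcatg
Grik3: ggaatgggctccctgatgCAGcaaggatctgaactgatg
Grik4: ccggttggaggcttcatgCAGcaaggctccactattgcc
Grik5: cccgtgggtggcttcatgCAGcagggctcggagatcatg

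The codon was CAG in 8 genes and CAA in *Gria4*, so that all 9 genomic sequences encode glutamine. In *Gria2* it lies at chr3:80706911-80706913 in exon 11 of 16 on the minus strand. In *Grik1* it lies at chr16:87940542-87940544 and in *Grik2* at chr10:49244329-49244331, both on the minus strand, in stretches that span the junction of exons 13 and 14. The stretch of *Grik3* also spans a junction, that of exons 12 and 13. Gene-level counts hold no information on editing at this site. The longest run of identical bases between any 2 of the 9 genes was 80 bases over their transcripts and 41 bases over their coding sequences, out of 36 pairs compared. Annotated overlaps with other exons were limited to small RNA genes on the same strand, which cover at most 0.99% of the exonic bases of any of the 9.

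None of the 9 subunit genes was called different between *Dnmt1* KO and WT. Under edgeR's quasi-likelihood test with Benjamini-Hochberg adjustment over all tested genes, 0 of 9 were higher and 0 of 9 were lower at an adjusted p under 0.05, and 0 of 9 had an unadjusted p under 0.05. DESeq2 and limma-voom also called 0 of 9, and limma-voom gave 1 kainate gene an unadjusted p under 0.05. Over all 16832 genes tested, 7.33% were called higher, 0.570% lower and 7.90% in either direction, and 22.7% had an unadjusted p under 0.05. Fits that left out a WT library or removed trends with length and GC content, given below for single genes, made more calls over all genes, with 14.2% higher and 7.15% lower without WT 1, 11.2% higher and 12.0% lower without WT 2, and 11.3% higher and 5.43% lower with the length and GC correction. Of the 9 genes, the median log2 fold change was -0.05 and the median absolute value 0.12, beside -0.03 and 0.32 over all genes tested. Their standard errors ran from 0.14 to 0.24. In bulk RNA, fewer cells of a type and less RNA per cell cannot be told apart, and this applies to each level below.

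**Figure D1:**
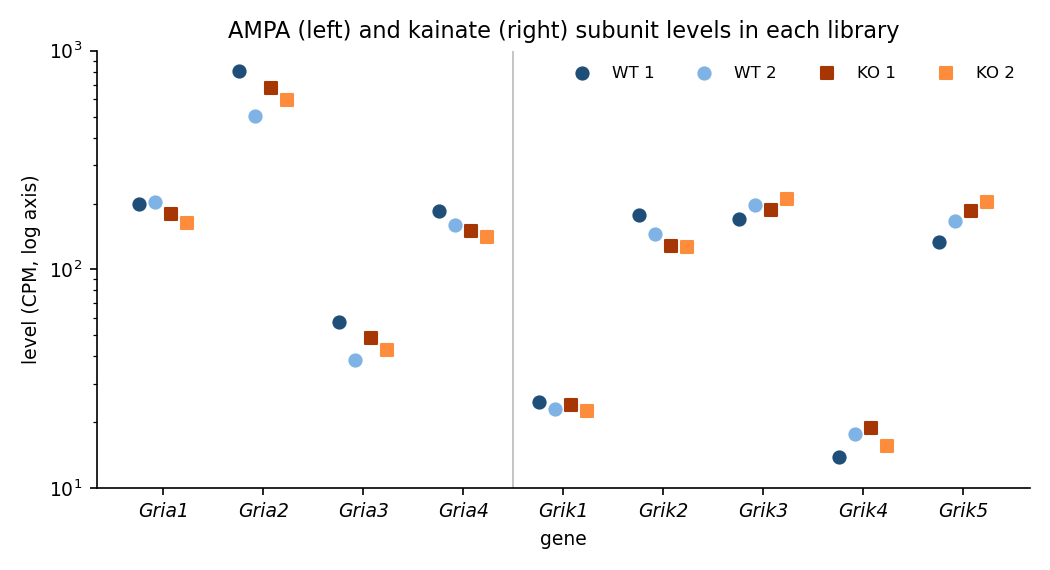
Level of each subunit gene in CPM on a log axis, with one point per library (circles WT, squares KO; AMPA genes on the left, kainate genes on the right). The WT circles of *Gria2* lie further apart, at 810 and 505 CPM, than its KO squares, which lie between them.

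*Gria2* (chr3:80681450-80802835, minus strand) encodes the subunit that limits calcium entry. It had the highest counts of the family, with 810 and 505 CPM in WT 1 and WT 2 and 675 and 592 CPM in KO 1 and KO 2. Both KO libraries thus lay between the WT libraries. The mean was 658 ± 216 CPM in WT and 633 ± 58.2 CPM in KO (SD, n = 2 each), a log2 fold change of -0.05 (95% interval -0.56 to 0.45, edgeR adjusted p = 0.916). This estimate depended on which WT library was kept. Without WT 1 it was 0.32 (adjusted p = 0.0222) and *Gria2* was called higher, whereas without WT 2 it was -0.37 (adjusted p = 0.00712) and the gene was called lower. Without KO 2 it was 0.05 (adjusted p = 0.981). When trends of each library with merged exon length and GC content were removed, it turned to 0.42 (adjusted p = 0.0253).

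*Gria1* (chr11:57011387-57330244, plus strand), whose product forms calcium-permeable channels when GRIA2 is absent, was measured at 198 and 203 CPM in WT and at 179.6 and 163 CPM in KO. The KO values were below the WT values without overlap. The log2 fold change was -0.23 (95% interval -0.54 to 0.09, edgeR adjusted p = 0.364), and it stayed negative and uncalled when any one library was left out (-0.29 to -0.15).

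*Gria4* (chr9:4417896-4796234, minus strand) encodes a subunit that many interneurons use for rapid responses. Its levels were 185 and 159 CPM in WT and 149.7 and 140.3 CPM in KO, again without overlap. The log2 fold change was -0.25 (95% interval -0.58 to 0.09, edgeR adjusted p = 0.361). Without WT 2 it was -0.37 and was called lower (adjusted p = 0.0485), and without WT 1 it was -0.14.

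*Gria3* (chrX:41400854-41678601, plus strand) was the AMPA gene with the lowest level, at 57.2 and 38.4 CPM in WT and 48.7 and 42.6 CPM in KO. As for *Gria2*, the KO libraries lay between WT 1 and WT 2. The log2 fold change was -0.06 (95% interval -0.55 to 0.42, edgeR adjusted p = 0.897), and it was 0.24 without WT 1 and -0.34 without WT 2 and 0.04 without KO 2, none of them called. With the length and GC correction it turned to 0.25 (adjusted p = 0.218).

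Among the kainate receptor genes, *Grik5* and *Grik2* had the largest changes, in opposite directions, and neither passed the test. *Grik5* (chr7:25009849-25072346, minus strand), which encodes a high-affinity subunit that needs a GRIK1 to GRIK3 partner, stood at 133.8 and 167 CPM in WT and at 184 and 203 CPM in KO. All KO values were above all WT values. The KO level was 1.28 times the WT level, with a 95% interval from 0.997 to 1.66 (log2 fold change 0.36, SE 0.16, edgeR adjusted p = 0.226). The gene was called higher without WT 2 (0.52, adjusted p = 0.00327) and with the length and GC correction (0.37, adjusted p = 0.0329), and was not called without WT 1 (0.20, adjusted p = 0.289).

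*Grik2* (chr10:49094833-49788766, minus strand), a main channel-forming subunit of forebrain kainate receptors, was at 176 and 145 CPM in WT and at 127.6 and 126.7 CPM in KO. Here the KO values lay below both WT values and close to each other. The log2 fold change was -0.34 (SE 0.15, 95% interval -0.69 to 0.02, edgeR adjusted p = 0.237). It was called lower without WT 2 (-0.48, adjusted p = 0.00552), was -0.19 without WT 1, and turned to 0.04 with the length and GC correction.

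*Grik3* (chr4:125490700-125714173, plus strand), another subunit able to form channels by itself, was at 170.4 and 196 CPM in WT and at 186 and 209 CPM in KO. The genotypes overlapped, and the log2 fold change was 0.11 (95% interval -0.23 to 0.45, edgeR adjusted p = 0.71). The estimate was 0.0027 without WT 1, 0.20 without WT 2, 0.20 without KO 1 and 0.03 without KO 2, none of them called.

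*Grik1* (chr16:87895900-88290265, minus strand), a channel-forming subunit known from forebrain interneurons, had 24.6 and 22.8 CPM in WT and 24.02 and 22.6 CPM in KO. These values were close within and between genotypes (log2 fold change -0.02, 95% interval -0.45 to 0.40, edgeR adjusted p = 0.957). The estimate was 0.02 without WT 1 and 0.03 without KO 2.

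*Grik4* (chr9:42518135-42944493, minus strand), the other high-affinity subunit, had the lowest level of the family, with 13.8 and 17.6 CPM in WT and 18.8 and 15.5 CPM in KO. The genotypes overlapped, and the log2 fold change was 0.12 (95% interval -0.43 to 0.67, edgeR adjusted p = 0.806). The estimate was -0.05 without WT 1 and -0.0083 without KO 1.

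In all, the libraries of the genotypes did not overlap for 4 of the 9 genes, *Gria1*, *Gria4* and *Grik2* with KO lower and *Grik5* with KO higher. This held for 53.5% of all genes tested. With scaling by library size alone, which moved the median of all genes from -0.03 to 0.08 on the log2 scale, the estimates of *Gria2*, *Gria3* and *Grik1* turned from negative to 0.08, 0.06 and 0.09.

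**Figure D2:**
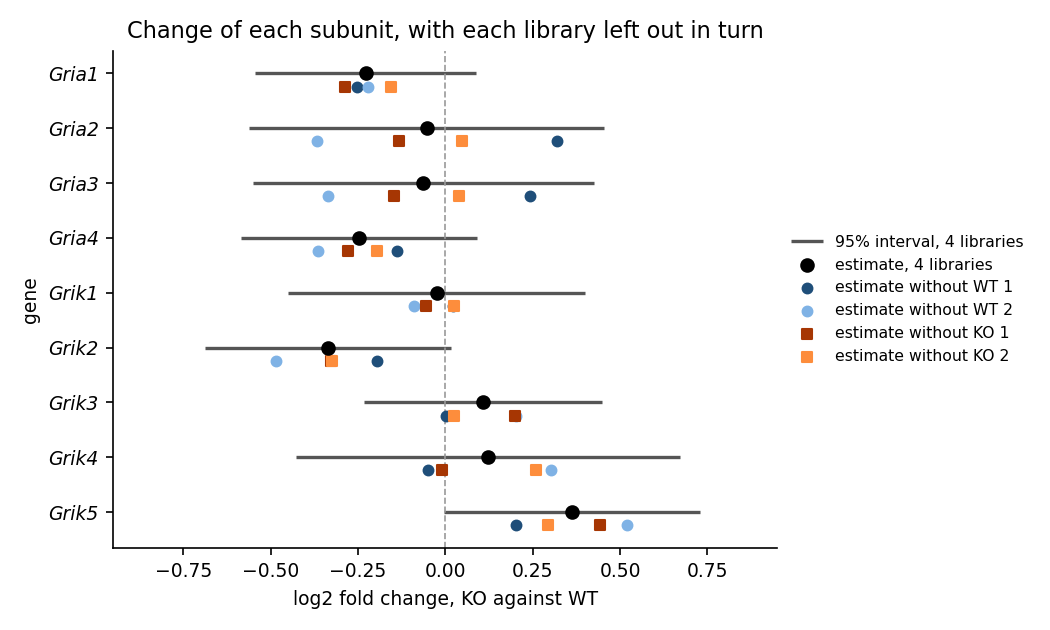
Log2 fold change of KO against WT for each subunit gene (black point, 95% interval as a bar) with the estimates after leaving out each library below it (circles without a WT library, squares without a KO library). Every interval from the 4 libraries includes 0, and the estimates for *Gria2* run from -0.37 to 0.32 depending on the library left out.

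The difference between the libraries of one genotype was then set beside the base composition of the genes. From WT 1 to WT 2, the CPM of *Gria2* fell by 0.68 on the log2 scale, that of *Gria3* fell by 0.58 and that of *Grik2* fell by 0.29. These are the genes with the lowest GC content in their longest transcript, at 36.8%, 39.8% and 37.9%. *Grik5*, with the highest GC content at 61.7%, was higher in WT 2 by 0.32, *Grik4* (52.2% GC) by 0.36 and *Grik3* (54.2% GC) by 0.20. Across the 9 genes, the Pearson correlation of GC content with the log2 difference of WT 2 from WT 1 was 0.91. These genes share the same libraries and are not independent replicates. Over 16822 tested genes with a GC value the correlation was 0.45. Between KO 1 and KO 2 it was 0.53 for the 9 genes and 0.24 over all, and the differences were smaller, from -0.27 for *Grik4* to 0.17 for *Grik3*. For the log2 fold change between the genotypes, the correlation with GC content was 0.77 across the 9 genes and 0.11 over all. With the length and GC correction the log2 fold changes were -0.23 for *Gria1*, -0.14 for *Gria4*, 0.0033 for *Grik1*, 0.08 for *Grik3* and 0.09 for *Grik4*, none of them called, and those of the other genes are given above.

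**Figure D3:**
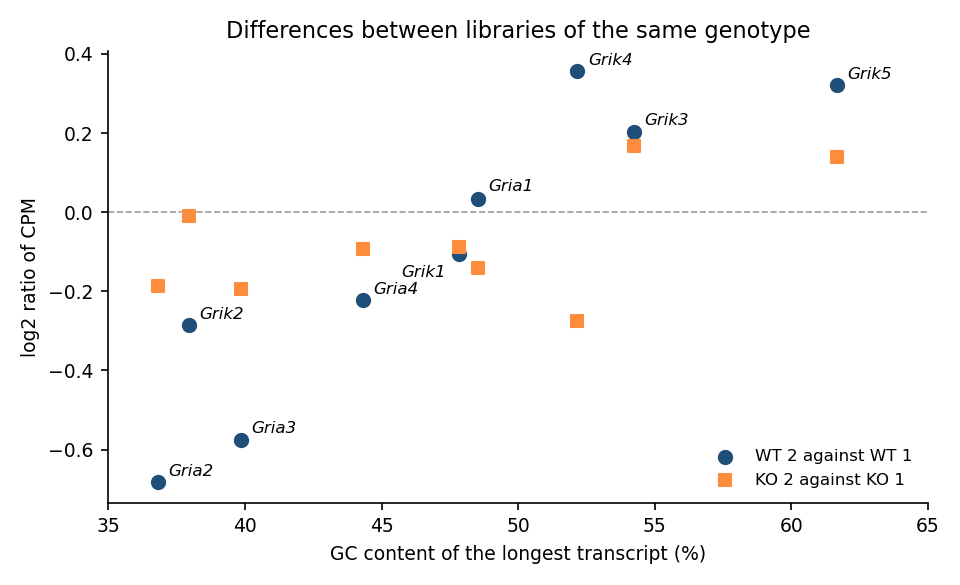
Log2 ratio of CPM between the libraries of one genotype against the GC content (%) of the longest transcript, with one circle (WT 2 against WT 1) and one square (KO 2 against KO 1) per subunit gene. The WT ratio runs from -0.68 for *Gria2*, at 36.8% GC, to values above 0 for *Gria1*, *Grik3*, *Grik4* and *Grik5*.

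To compare subunits with each other, counts were scaled by the length of the merged exons (RPKM). In WT the order of the mean levels was *Gria2* with 42.3 ± 13.9 RPKM (SD, n = 2), *Gria1* with 33.2 ± 0.544, *Grik5* with 29.1 ± 4.56, *Gria4* with 27.3 ± 2.97, *Grik3* with 20.4 ± 2.04, *Grik2* with 12.1 ± 1.69, *Gria3* with 4.85 ± 1.35, *Grik1* with 3.53 ± 0.184 and *Grik4* with 2.63 ± 0.458 RPKM. The neighbours *Gria2* and *Gria1* overlapped between their libraries, as did *Grik5* and *Gria4*. With the length of the longest transcript in place of the merged exons, *Grik5* came before *Gria1* and the other ranks in WT were the same. In KO, *Grik5* with 37.4 ± 2.58 RPKM came second after *Gria2* with 40.7 ± 3.74 RPKM, and these overlapped, as did *Gria4* and *Grik3*. *Gria1*, with 28.3 ± 1.95 RPKM in KO, followed there, and the ranks from *Gria4* downwards were those of WT. With the longest transcript as the length, neither pair overlapped in KO. *Gria2* then had 65.04 and 57.11 RPKM and *Grik5* 45.32 and 49.95 RPKM, and *Gria4* had 27.51 and 25.79 RPKM and *Grik3* 20.75 and 23.3 RPKM.

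The make-up of each family was read as the share of every subunit in the summed RPKM of its family within a library, which does not depend on the scaling between libraries. The shares were not corrected for the trends with GC content given above. *Gria2* held 43.4% of AMPA subunit RNA in WT 1, 34.1% in WT 2, 42.6% in KO 1 and 41.6% in KO 2. WT 2 stood below the other libraries, and the difference of 3.34 percentage points between the genotype means gave an exact two-sided permutation p of 1. With 2 libraries against 2, this test cannot give a p below 0.333, so no share can pass 0.05. The difference was 7.97 points without WT 1 and -1.29 points without WT 2. Set against the sum of the other AMPA genes, the RPKM ratio of *Gria2* was 0.766 in WT 1, 0.518 in WT 2, 0.743 in KO 1 and 0.711 in KO 2. With the longest transcript as the length, this ratio was 0.967 in WT 1, 0.665 in WT 2, 0.939 in KO 1 and 0.901 in KO 2. The size of the *Gria2* share thus depends on the length used. *Gria1* held 27.3% to 35.3% over the libraries, *Gria4* 23.3% to 26.5% and *Gria3* 4.09% to 4.86%.

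Among the kainate genes, *Grik5* held 40.4% and 45.2% in WT and 49.0% and 50.3% in KO. Its KO shares lay above its WT shares, by 6.83 percentage points between the means (42.8% ± 3.46 in WT and 49.6% ± 0.922 in KO, SD, n = 2 each), with an exact permutation p of 0.333. Without WT 1 the difference was 4.39 points and without WT 2 it was 9.28 points. *Grik2* held 20.8% and 15.3% in WT and 13.2% and 12.3% in KO, lower in both KO libraries, with a difference of -5.27 points between the means (exact permutation p = 0.333). This difference was -2.54 points without WT 1 and -8.01 points without WT 2. The remaining shares lay between 28.5% and 30.6% for *Grik3*, between 4.30% and 5.70% for *Grik1* and between 3.34% and 4.33% for *Grik4*. Summed over each family, AMPA genes had 1251 and 905 CPM in WT and 1053 and 938 CPM in KO, and kainate genes 519 and 549 CPM in WT and 541 and 577 CPM in KO. The AMPA sums of KO lay between those of WT, and the kainate sums overlapped.

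**Figure D4:**
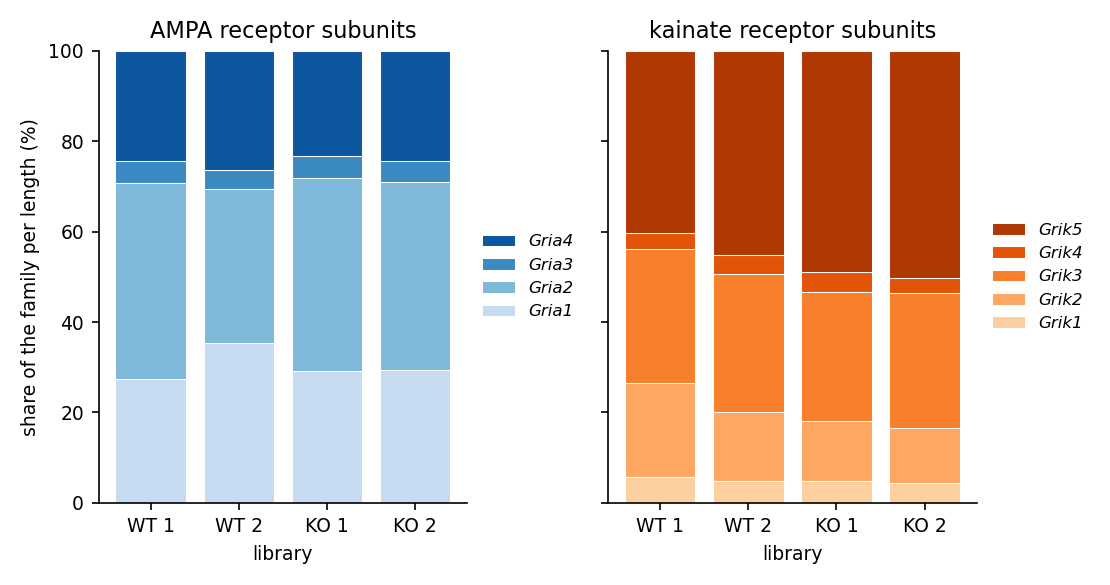
Share (%) of each subunit in the length-scaled RNA of its family, one stacked bar per library (AMPA left, kainate right). *Grik5* takes 40.4% and 45.2% of the kainate bars in WT and 49.0% and 50.3% in KO, and *Gria2* is lowest in WT 2 at 34.1% of the AMPA bar.

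Of the partners of these receptors, 45 of 47 listed genes were tested and 3 were called higher and 0 lower in KO by edgeR. At an unadjusted p under 0.05 there were 15 of 45, beside 22.7% of all genes tested. Without one library in turn, 3 to 5 were called higher and 0 to 6 lower, with 6 lower both without WT 1 and without WT 2, and with the length and GC correction 5 were called higher and 5 lower. All 3 called genes belong to glutamate uptake and recycling, and none to the proteins that assemble with, anchor or edit the subunits. Genes named below that did not pass the test were picked after their values were seen.

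Of the 16 AMPA receptor auxiliary and assembly proteins, 16 were tested and 0 were called by edgeR, DESeq2 or limma-voom. By edgeR 2 were higher and 3 lower at an unadjusted p under 0.05. Their median log2 fold change was -0.0002. *Cnih3*, a cornichon protein that helps AMPA receptors leave the endoplasmic reticulum, had the lowest value at -0.99, with 5.46 and 5.68 CPM in WT and 2.97 and 2.64 CPM in KO (edgeR adjusted p = 0.165). *Shisa8* had the highest at 1.44, on 8 to 32 counts per library (adjusted p = 0.144). *Cacng2*, which encodes stargazin, was at 25.8 and 25.2 CPM in WT and at 15.1 and 17.9 CPM in KO (log2 fold change -0.62, adjusted p = 0.112), and it was called lower without either WT library and with the length and GC correction.

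Of the kainate receptor auxiliary proteins, *Neto1* had a log2 fold change of 0.02. *Neto2*, which slows desensitisation of kainate receptors, was at 152 and 86.3 CPM in WT and at 75.02 and 63.99 CPM in KO. The genotypes did not overlap, and the log2 fold change of -0.78 (SE 0.26) did not pass in edgeR (adjusted p = 0.118), whereas DESeq2 called *Neto2* lower. It was also called lower in edgeR without a filter and without WT 2, and was not called without WT 1 or with the length and GC correction.

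The 11 scaffold and trafficking proteins, such as *Dlg4* (PSD-95), *Grip1* and *Pick1*, had values between -0.30 and 0.08 on the log2 scale with a median of -0.11. By edgeR, DESeq2 and limma-voom 0 were called, and 0 had an unadjusted p under 0.05. *Pick1* shares 18.6% of its exonic bases with *Gm49486* on the same strand. Of the 5 secreted and surface partners, 4 were tested and 0 called by any of the 3 tools. *Nptxr*, the neuronal pentraxin receptor, which shares 17.2% of its exonic bases with *Npcd* on the same strand, stood at -0.50 on the log2 scale (edgeR adjusted p = 0.092) and was called lower without either WT library and with the length and GC correction. Not tested was *C1ql2*, with 2 to 17 counts per library.

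The ADAR family, which includes the enzyme that edits the pore site shown above, had log2 fold changes of -0.02 for *Adar*, -0.17 for *Adarb1* and -0.16 for *Adarb2*. *Adar* shares 16.8% of its exonic bases with *Chrnb2* on the opposite strand. *Adarb1*, whose product edits the *Gria2* site, was at 43.9 and 51.0 CPM in WT and at 41.9 and 42.4 CPM in KO (95% interval -0.54 to 0.19, edgeR adjusted p = 0.561). None of the 3 was called by edgeR, DESeq2 or limma-voom, and none had an unadjusted p under 0.05.

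*Grid1*, a delta receptor gene related to the AMPA and kainate subunits whose product acts mainly as a synaptic organiser, was at 31.0 and 44.5 CPM in WT and at 52.9 and 57.0 CPM in KO. The KO values lay above the WT values, and the difference of 0.54 on the log2 scale did not pass in edgeR (adjusted p = 0.155). It was called higher without WT 2 and with the length and GC correction.

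Of the 8 genes for glutamate release, uptake and recycling, 7 were tested. *Slc1a2*, the glial glutamate transporter GLT-1, rose from 113 and 89.6 CPM in WT to 2026 and 1870 CPM in KO (log2 fold change 4.26, SE 0.18, edgeR adjusted p = 6.33e-06). *Slc1a3*, the transporter GLAST, rose from 70.3 and 76.5 CPM to 593 and 546 CPM (2.95, SE 0.15, adjusted p = 1.21e-05). *Glul*, the glutamine synthetase of astrocytes, rose from 100.9 and 101.4 CPM to 738 and 711 CPM (2.84, SE 0.14, adjusted p = 1.18e-05). These genes were called under every alternative tried. The vesicular transporters *Slc17a6* and *Slc17a7* had log2 fold changes of -0.59 and -0.47 (edgeR adjusted p = 0.0951 and 0.651), and *Slc17a6* was called lower without WT 2 and with the length and GC correction. The neuronal transporter *Slc1a1*, which shares 31.9% of its exonic bases with a gene on the opposite strand, had -0.57 (adjusted p = 0.207) and was called lower without WT 1. *Slc17a8*, with 4 to 19 counts per library, was not tested.

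**Figure D5:**
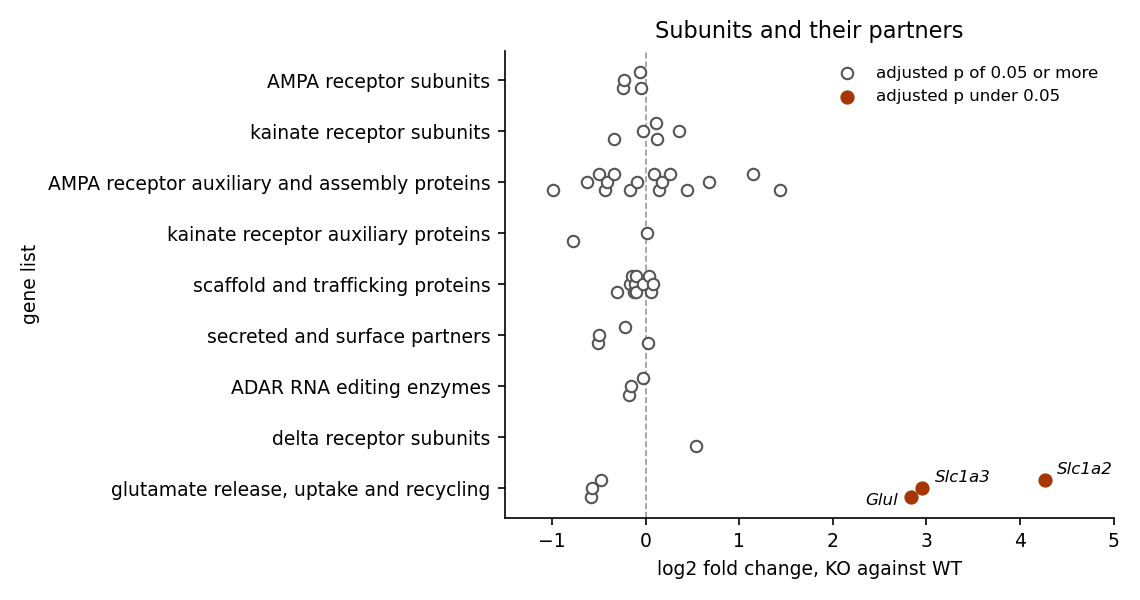
Log2 fold change of KO against WT for the subunits and the 7 lists of partners, one point per tested gene reported here (filled where the edgeR adjusted p was under 0.05). The filled points are *Slc1a2*, *Slc1a3* and *Glul*, at 4.26, 2.95 and 2.84, while the 9 subunits lie between -0.34 and 0.36.

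Markers of other cell types differed between the sorted samples. Of 12 astrocyte markers, which include *Slc1a2* and *Slc1a3*, 12 were called higher in KO, with summed levels of 279 to 293 CPM in WT and 3973 to 4144 CPM in KO, and *Gfap* had 0 counts in both WT libraries. Of 7 mural cell markers 6 were called higher (48.4 to 52.8 CPM in WT, 318 to 328 CPM in KO, *Acta2* at 0 counts in WT), and of 6 myelinating oligodendrocyte markers 5 (128 to 152 and 541 to 560 CPM). Of 10 general neuronal markers 3 were called lower, and their sums were 5770 and 6386 CPM in WT and 4267 and 4335 CPM in KO. Of 10 markers of the POA and GABAergic lineage 0 were called by edgeR, DESeq2 or limma-voom, with 2 at an unadjusted p under 0.05 in edgeR, and their sums were 1417 and 1570 CPM in WT and 1212 and 1338 CPM in KO. Of 5 markers of glutamatergic cortical neurons 3 were called lower, with sums of 395 and 409 CPM in WT and 189 and 216 CPM in KO. Lists of radial glia and oligodendrocyte precursors each had 1 of 6 called higher (734 to 778 against 933 to 992 CPM, and 1488 to 1558 against 1888 to 1999 CPM). In the remaining lists, microglia had 1 of 5 tested called higher and endothelial cells 0 of 4 by any of the 3 tools. Choroid plexus had 1 of 4 called lower (with *Folr1*, too low to be tested, at 0 counts in KO) and erythroid cells 1 of 5. The part of these differences in the levels of the receptor subunits and their partners was not tested.

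Promoter windows of RefSeq genes, 250 bases before and 50 bases after the start on GRCm38.p6, were matched for 6 of the 9 genes. Their count of CG dinucleotides (CG is the same on both strands) was 10 in *Grik5*, 17 in *Gria4*, 26 in *Gria2*, 26 in *Grik2*, 42 in *Grik4* and 50 in *Grik3*. All 6 windows held more CG than the median of 7 over 32851 windows, of which 94.6% held at least 1. *Grik5* lay near that median, as 56.5% of all windows held fewer CG than its window. For the other matched genes this share ran from 68.6% in *Gria4* to 99.1% in *Grik3*. Not matched were *Gria1*, *Gria3* and *Grik1*. DNA methylation was not analysed here.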

How the data were processed

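Raw counts of reads on Ensembl genes were deposited by the authors for 4 libraries. The submitters' processing notes name CASAVA 1.8.2, STAR 2.5.2a, featureCounts 1.5.0-p1 and the builds mm10 and GRCm38. The annotation release and the strand setting are not given in the sources used here, and without strand, reads of opposite-strand genes cannot be told apart. Gene symbols came from GENCODE M21, which matched 55480 of 55573 identifiers. The table was filtered with filterByExpr (16832 genes), normalized with TMM and tested with edgeR 4.0.16 (limma 3.58.1, R 4.3.3) by its quasi-likelihood test with no term but genotype. Adjustment followed Benjamini and Hochberg over all tested genes, with a threshold of 0.05. Standard errors were derived from the test statistic, and 95% intervals used the same degrees of freedom. CPM used TMM-scaled library sizes, and RPKM the merged exon length. Intervals and floors cover the spread between libraries or counting error only. Coding sequences were read from spliced GENCODE M21 transcripts on GRCm38, and the transcript with the longest coding sequence was used. The scripts were tested on simulated data.

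The 9 genes and all lists were chosen with earlier results of these data known. All 9 genes are named, from each list the called genes (up to 4 by size of change) and genes at 0, and from marker lists the genes at 0 and up to 2 with the highest CPM. *Hmx3* and the partners that did not pass the test were named outside this rule, with their values seen. Alternatives were DESeq2 1.42.0, limma-voom, other scalings, no filter or a minimum of 10 counts, a block for the replicate number, the removal of trends with merged exon length and GC content, other thresholds and leaving out each library. Of the partner genes counted, 2 are not reported here by name or in the plot. MeDIP data were not analysed here.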

Additional observations from a re-analysis of the deposited data

How the results depend on the processing

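With 2 libraries per genotype, a fit without one of them assumes that the remaining library varies like those of the other genotype. Depth limits the partners with few counts, such as *Shisa8*. The cause of the changes below was not tested.

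The number of subunits called higher was 2 with the length and GC correction, with or without the replicate block (*Gria2* and *Grik5*), and 0 to 1 without one library; those called lower numbered 0 to 3 without one library. Partners called higher were 5 with the block, with the correction and with both, and 3 to 5 without one library; those called lower were 2 with DESeq2, 3 without a filter, 5 with the block, 5 with the correction, 6 with both, 2 at an adjusted p under 0.1 and 0 to 6 without one library. Markers called lower were 8 at the threshold used, 16 without a filter, 14 with the block, 15 with the correction, 20 with both, 3 at an adjusted p under 0.01 and 6 to 19 without one library.

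Scaling by library size alone moved the median log2 fold change of all genes from -0.03 to 0.08 and turned *Gria2* to 0.079, *Gria3* to 0.064 and *Grik1* to 0.089, and *Grik1* was 0.016 with the upper quartile and 0.012 with at least 10 counts in every library. The length and GC correction, without and with the block, turned *Gria2* to 0.42 and 0.42, *Gria3* to 0.25 and 0.25, *Grik1* to 0.0033 and 0.0031 and *Grik2* to 0.044 and 0.054, and gave *Grik5* 0.37 and 0.37. Without one library the log2 fold changes ran from -0.37 to 0.32 for *Gria2* (0.05 without KO 2), from -0.34 to 0.24 for *Gria3* (0.04 without KO 2), from -0.37 to -0.14 for *Gria4*, from -0.089 to 0.025 for *Grik1* (0.021 without WT 1), from -0.48 to -0.19 for *Grik2*, from -0.049 to 0.30 for *Grik4* (-0.0083 without KO 1) and from 0.20 to 0.52 for *Grik5*. The share of *Grik3* was higher by 1.04 points in KO from counts without length scaling.

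*Dnmt1* passed with DESeq2 (-0.57), limma-voom (-0.56), DESeq2's size factors (-0.57), no filter (-0.55), the block (-0.56), the correction (-0.59), both (-0.59) and at a threshold of 0.1 (-0.56), and ran from -0.67 to -0.46 without one library. Libraries with the same number deviated together with a correlation of 0.137 across genes. With 2 pairs, no source but the number in the labels links them. With the block, *Cnih2*, *Neto2*, *Nptxr* and *Slc17a6* were called lower and *Grid1* higher. All genes called higher and lower numbered 1233 and 96, against 1625 and 619 with the block, 1906 and 914 with the correction, 2216 and 1371 with both, 1790 and 573 without a filter, 1246 and 247 with DESeq2, 2578 and 1300 without WT 1 and 2029 and 2180 without WT 2. Of the other results and settings, 228 were taken as unchanged. They kept direction and side of the threshold, stayed within the spread between libraries, or were counts of called genes that moved by smaller factors. Among these, markers called higher numbered 26 at the threshold used, 20 at an adjusted p under 0.01 and 35 with the correction.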
